A study of Mus musculus with 7 samples.

Results

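Klk6, Hopx, Anxa5 and Mgst3 are genes used to mark MOL2, a class of mature oligodendrocytes. Their rows were taken by symbol from a table of UMI counts (molecules tagged by a unique identifier), and all 4 were found among 27998 genes. The cells were oligodendrocyte lineage cells (OLCs) sorted from the neocortex of mice at P90 on a C57BL/6-B6CBA background, and the labels name motor and cingulate cortex as the region. The methods name the neocortex and, in the same protocol, dissection of the corpus callosum (CC), a white matter tract, so how much CC the libraries hold is not settled by these sources. Control dOLCs were the TdTom+ cells of Emx1-Cre:Sox10-GFP-TdTom mice, that is, cells of dorsal, Emx1-expressing origin, and control vOLCs were the GFP+ cells of the same genotype, which had not recombined. Ectopic vOLCs were the GFP+ cells of Emx1-Cre:Sox10-GFP-tdTom mice that also carried Sox10-GFP-DTA, in which recombined OLCs express diphtheria toxin A and are lost. All groups carried Emx1-Cre and the Sox10 reporter. The tissue came from 4 control and 2 ablated mice by the methods, and cells of a condition are not assigned to a mouse in the files, leaving 1 library per condition. No test between conditions was possible, and values are descriptions with intervals that cover counting error only.

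Oligodendrocytes make the myelin of the central nervous system, and mature ones (MOL) fall into transcriptional classes that differ in abundance between regions. MOL2 cells are known from white matter, above all of the spinal cord, whereas MOL5/6 cells are the common class of the adult forebrain. Klk6 encodes kallikrein-related peptidase 6, a secreted serine protease of oligodendrocytes that can cleave myelin proteins. Hopx encodes a small homeodomain protein that does not bind DNA and acts through partners such as serum response factor. Anxa5 encodes annexin A5, which binds phosphatidylserine in the presence of calcium, and Mgst3 encodes a membrane-bound enzyme that uses glutathione.

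The genes lie on 4 chromosomes. On GRCm38 with the GENCODE M21 annotation, Klk6 spans chr7:43824499-43832030 on the plus strand, with up to 7 exons in a transcript. Hopx spans chr5:77086988-77115121 on the minus strand, with up to 3 exons. Anxa5 spans chr3:36448923-36475894 with up to 13 exons, and Mgst3 spans chr1:167371966-167393841 with 6 exons, both on the minus strand. The antisense gene Hopxos, which overlaps Hopx, had 0 UMIs in the kept cells.

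RefSeq promoter windows (GRCm38.p6) were available for all 4 genes at 6 start sites. The window before the first of the listed RefSeq starts of Klk6, at chr7:43824544, is shown because it was the one window of these in which a searched motif was found. The window before the outermost start of Hopx is shown beside it. Each reads 5′ to 3′ on the gene's strand in lower case, with bases inside an annotated exon left off, and capitals mark the hexamers ACAAAG and ACAATG, which SOX factors can bind.
Klk6, chr7:43824294-43824437, plus strand: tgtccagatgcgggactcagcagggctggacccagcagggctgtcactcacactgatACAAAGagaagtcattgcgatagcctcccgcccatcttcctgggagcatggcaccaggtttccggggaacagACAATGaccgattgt
Hopx, chr5:77115124-77115373, minus strand: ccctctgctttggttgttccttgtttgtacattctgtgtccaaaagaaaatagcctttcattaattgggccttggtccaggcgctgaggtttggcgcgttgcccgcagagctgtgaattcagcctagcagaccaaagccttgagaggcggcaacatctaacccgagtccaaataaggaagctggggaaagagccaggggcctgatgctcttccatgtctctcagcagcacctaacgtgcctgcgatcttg
In the Klk6 window, ACAAAG began 193 bases and ACAATG 121 bases before the RefSeq start at 43824544. That start lies inside the GENCODE span of Klk6, so the distances to the annotated edge of the gene are shorter. Over the 250 bases before 32851 annotated starts, and counting both strands, ACAAAG was found in 16.5% of windows, ACAATG in 10.7% and both in 1.91%. The other 5 windows of the 4 genes held neither hexamer, and TATAAA, present in 12.4% of all windows, was in none of the 6. The hexamers do not overlap each other. A match in letters is a description only, and reads from the 3′ end of transcripts do not tell which start a cell uses.

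After the authors' filter, 5804 control dOLCs, 925 control vOLCs and 2562 ectopic vOLCs were kept, with median depths of 3489.5, 5022 and 5318.5 UMIs per cell. Between 6 and 24 cell barcodes were shared by a pair of libraries. MOL2 was annotated as MOL2a and MOL2b. MOL2a held 498 control dOLCs, 179 control vOLCs and 115 ectopic vOLCs. MOL2b held 235, 6 and 106 cells in the same order, so that every value for MOL2b of control vOLCs rests on 6 cells. Levels are UMIs summed by cluster and library, as counts per 1000000 (CPM).

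Klk6 was highest in MOL2a, then in MOL2b. In MOL2a it stood at 546 CPM in control dOLCs (1102 UMIs), 1451 CPM in control vOLCs (1704 UMIs) and 1412 CPM in ectopic vOLCs (972 UMIs). In MOL2b it stood at 280, 134 and 178 CPM (468, 7 and 154 UMIs). MOL1 followed at 47.5, 176 and 36.7 CPM, and the 4 MOL5/6 clusters lay between 14.97 and 76.1 CPM. Over clusters with at least 20 cells in a library, which leaves out MOL2b of control vOLCs, MOL2a lay above MOL2b and MOL2b above MOL1 without overlap, whereas each later neighbour in the order overlapped the next. With its 6 cells included, MOL2b at 134 CPM lay below MOL1 at 176 CPM in control vOLCs, from 7 and 28 UMIs. Of all Klk6 UMIs in a library, the MOL2 share was 78.0% for control dOLCs, 88.5% for control vOLCs and 77.8% for ectopic vOLCs.

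Klk6 outside MOL2 was set beside its level in oligodendrocyte progenitors (OPCs), which stood at 26.3, 60.8 and 18.3 CPM. MOL5/6 as a whole stood at 20.96, 56.2 and 25.2 CPM in the same libraries. With each cell thinned to 1000 UMIs, 1.99%, 8.26% and 1.52% of OPCs held a Klk6 UMI, and the part of RNA from other cells in these values was not tested. Of 19 other cluster and library pairs with at least 20 cells, 14 had a Klk6 interval that overlapped that of the OPCs of their library, 3 lay above it and 2 below. Those above were MOL1 of control vOLCs at 176 CPM (117 to 255), MOL1 of control dOLCs at 47.5 CPM (34.1 to 64.4) and MOL5/6a of ectopic vOLCs at 35.2 CPM (29.7 to 41.5), and those below were MOL5/6d of control dOLCs at 15.5 CPM (11.7 to 20.3) and of control vOLCs at 14.97 CPM (4.08 to 38.3). The level in OPCs was subtracted from that in MOL2a in a comparison chosen after the data were seen, which left 520, 1391 and 1394 CPM.

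Hopx was a scarcer gene with the same cells at its top. In MOL2a it stood at 24.8, 44.3 and 55.2 CPM in control dOLCs, control vOLCs and ectopic vOLCs (50, 52 and 38 UMIs). In MOL2b it stood at 49.7 CPM in control dOLCs (83 UMIs) and 41.7 CPM in ectopic vOLCs (36 UMIs), with 0 UMIs in the 6 cells of control vOLCs. The cluster MFOLb, of myelin-forming oligodendrocytes, came next at 26.0 CPM in control dOLCs and 31.8 CPM in ectopic vOLCs. The ranges of MOL2b, MOL2a and MFOLb overlapped in turn, and those of MFOLb and the next cluster, MOL5/6c at 6.06 to 11.1 CPM, did not. OPCs stood at 3.81, 5.07 and 0 CPM, and in ectopic vOLCs 0 of 330 OPCs held a UMI, which allows up to 0.909% of OPCs to hold one and sets no limit on cells that express the gene.

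Anxa5 and Mgst3 were spread more widely over the lineage. Anxa5 in MOL2a stood at 95.1, 114 and 121 CPM, and in MOL2b at 99.4, 57.4 and 99.5 CPM, the middle value from 3 UMIs. It was lower in MOL5/6, at 37.8, 32.2 and 38.9 CPM, and lowest among larger clusters in OPCs and the early cluster COP/NFOL/MFOLa, at 4.16 to 10.1 CPM. Mgst3 in MOL2a stood at 69.9, 112 and 113 CPM, and in MOL2b at 58.7, 38.3 and 62.5 CPM. Unlike the other 3 genes, Mgst3 was nearly as high in OPCs, at 57.5, 104 and 81.5 CPM, and its ranges in MOL2a and OPCs overlapped.

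**Figure D1:**
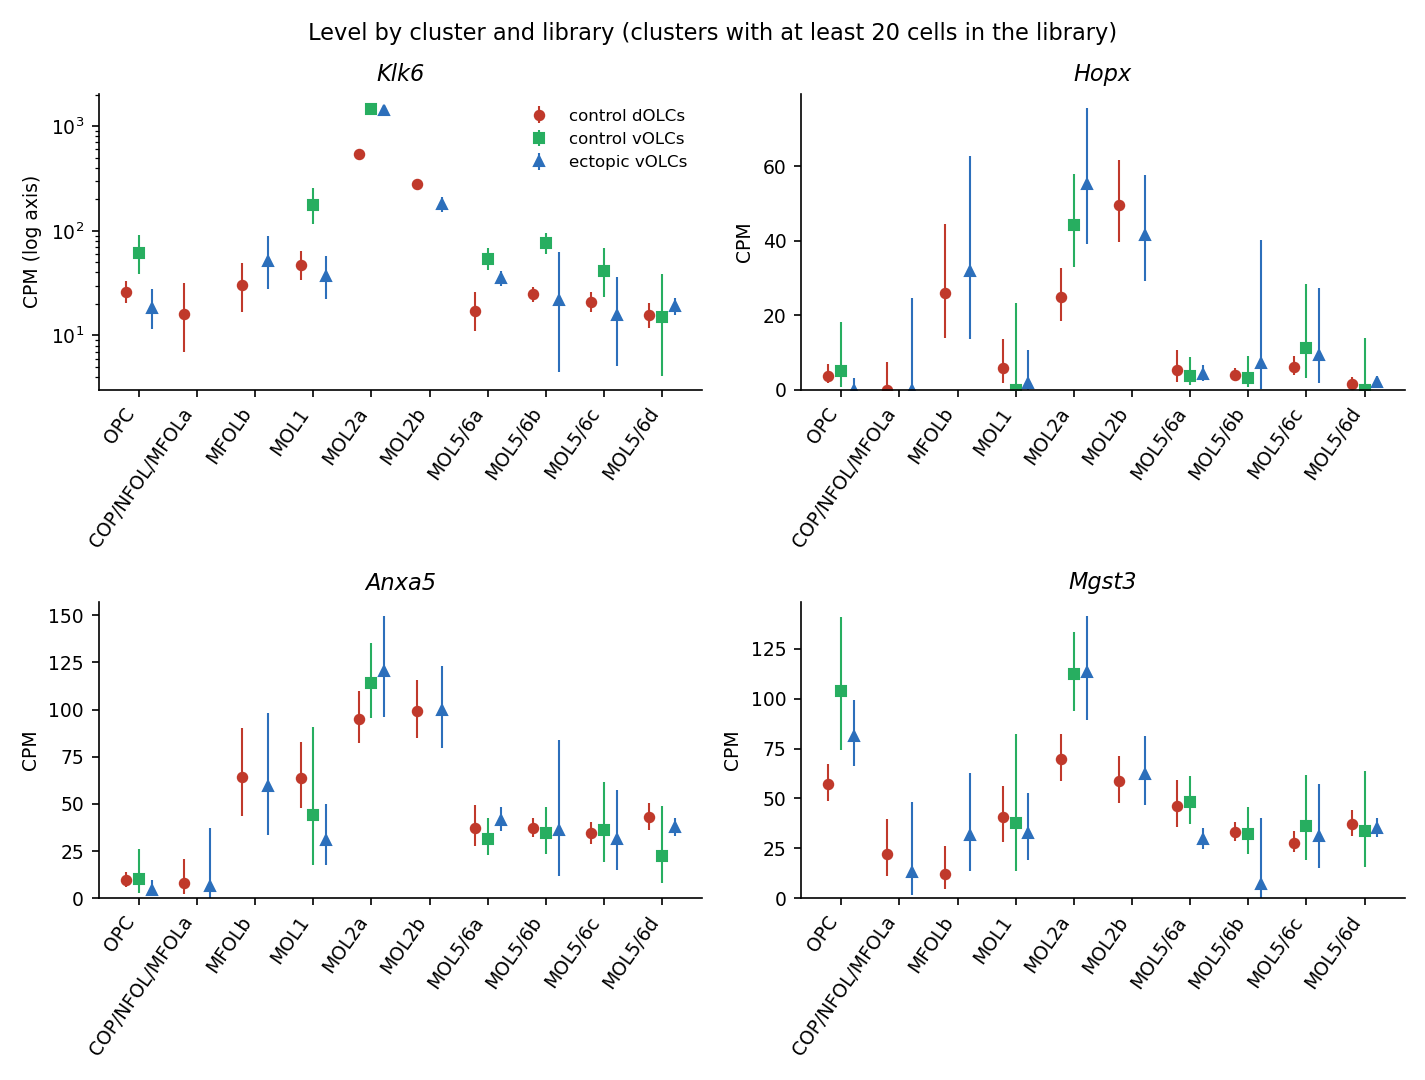
CPM (vertical axis, on a log scale for Klk6) of the 4 genes in each cluster (horizontal axis) and library (colours), for clusters with at least 20 cells in that library; points are summed UMIs and bars their 95% exact Poisson intervals. A Klk6 point with 0 UMIs is not drawn. Klk6 peaks in MOL2a, Hopx in MOL2a, MOL2b and MFOLb, Anxa5 in MOL2a and MOL2b, and Mgst3 in MOL2a and OPCs.

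MOL2 was then compared with the other mature oligodendrocytes (MOL1 and MOL5/6) within each library. Since the clusters were made from these genes too, this comparison is a description and no test. For Klk6, the log2 ratio of CPM was 4.25 for control dOLCs, 4.48 for control vOLCs and 4.82 for ectopic vOLCs, a mean of 4.52 ± 0.29 (SD, n = 3). None of the 5567 genes past the filter (at least 50 UMIs, and a UMI in at least 10% of cells of one side) had a higher mean ratio. For Hopx the ratios were 3.12, 3.44 and 3.92, a mean of 3.49 ± 0.40 (SD, n = 3), with 1 gene, Klk6, above it. Anxa5 had a mean of 1.52 ± 0.23 (SD, n = 3) with 30 genes above it, and Mgst3 a mean of 1.25 ± 0.29 (SD, n = 3) with 50 above it. All 4 means were past a log2 ratio of 1, against 1.29% of the genes tested, and all 4 genes were chosen as markers of these cells. Hopx passed the filter through MOL2, where 13.9% to 26.2% of cells held a UMI, against 1.62% to 1.85% of other mature cells. The label was least clear for Mgst3, whose ratio was 0.92 for MOL2 of control dOLCs and, for MOL2b alone, 0.78 in control dOLCs, −0.061 in control vOLCs (2 UMIs) and 0.94 in ectopic vOLCs. Against MOL1 alone the mean log2 ratio was 3.48 for Klk6 and 1.26 for Anxa5.

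Between MOL2b and MOL2a, Klk6 had the lowest mean ratio over libraries of all genes past the filter. The log2 ratio of MOL2b to MOL2a for Klk6 was −0.96 in control dOLCs (95% interval −1.12 to −0.80), −3.44 in control vOLCs (−4.75 to −2.39) and −2.99 in ectopic vOLCs (−3.24 to −2.74), a mean of −2.46 ± 1.32 (SD, n = 3). Of 6240 genes past the filter, 6239 had a higher mean ratio. A library with 0 UMIs of a gene in either cluster was left out of that gene's mean, as for Hopx in control vOLCs. Leaving out the 6 MOL2b cells of control vOLCs, the Klk6 mean was −1.97. The rank and the shares of genes given here include these cells and were not computed without them. Klk6 was the 1 member past −1, beside 1.04% of all genes, and 0 of the 4 were past 1, beside 6.31%. With TMM factors the split of genes past these limits moved from 394 higher and 65 lower to 233 higher and 161 lower, and Mgst3 went from −0.89 to −1.05, which put it past −1 beside Klk6. With size factors Mgst3 was −1.02.

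Hopx did not follow Klk6 between the 2 clusters. In control dOLCs it was higher in MOL2b by a log2 ratio of 1.00 (0.48 to 1.54), and in ectopic vOLCs it was −0.41 (−1.11 to 0.29), an interval that includes 0. Anxa5 ratios of 0.064 (−0.24 to 0.37) and −0.28 (−0.73 to 0.18) in these libraries also had intervals that include 0. Mgst3 was −0.25 (−0.64 to 0.13) in control dOLCs and −0.86 (−1.39 to −0.34) in ectopic vOLCs. MOL2b cells were deeper, with a median of 7168 UMIs against 3862 in MOL2a of control dOLCs and 8292 against 6050 in ectopic vOLCs, and their median share of mitochondrial counts was 3.66% against 7.36% and 4.02% against 7.48%. For Klk6 the mean log2 ratio was −2.11 with cells thinned to 1000 UMIs and −2.47 with cells of at most 10% mitochondrial counts.

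The libraries were compared within MOL2a, to ask whether MOL2 cells of ventral origin, in control or ablated brain, held the same levels as those of dorsal origin. Klk6 was 2.59-fold higher in ectopic vOLCs than in control dOLCs, a log2 ratio of 1.37 (1.245 to 1.497), and 2.66-fold higher in control vOLCs than in control dOLCs, a log2 ratio of 1.41 (1.30 to 1.52). Both comparisons share the control dOLC library. Ectopic and control vOLCs were close, with a log2 ratio of −0.039 (−0.15 to 0.075) that turned to 0.14 with TMM factors. Klk6 was among the largest ratios, with 7 of 5266 genes above it between ectopic vOLCs and control dOLCs and 31 of 5916 between the 2 controls. With 1 library per condition, differences between mice, sorts and libraries cannot be told apart from those between origins.

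Hopx in MOL2a leaned the same way with far fewer UMIs. Its log2 ratio was 1.16 (0.51 to 1.79) for ectopic vOLCs over control dOLCs, 0.84 (0.25 to 1.43) for control vOLCs over control dOLCs and 0.32 (−0.32 to 0.95) for ectopic over control vOLCs. Mgst3 gave 0.70 (0.28 to 1.11), 0.69 (0.33 to 1.04) and 0.012 (−0.41 to 0.43) in the same order. Anxa5 gave 0.34 (−0.047 to 0.72), 0.26 (−0.067 to 0.59) and 0.080 (−0.33 to 0.49), all with intervals that include 0. Past a log2 ratio of 1 were 2 of the 4 genes, Klk6 and Hopx, between ectopic vOLCs and control dOLCs, beside 0.684% of all genes, and 1 of the 4, Klk6, between the controls, beside 1.4%. Hopx met the filter through the ventral libraries, with a UMI in 26.96% of ectopic and 20.1% of control vOLCs against 8.84% of control dOLCs, so nothing is read from its count. No member was past −1 there, where 6.99% of genes were between ectopic vOLCs and control dOLCs, and 0 of the 4 were past 1 or −1 between ectopic and control vOLCs, beside 0.227% and 5.08%. With TMM factors the genes past 1 and −1 between ectopic vOLCs and control dOLCs went from 36 higher and 368 lower to 80 higher and 210 lower, and Klk6 to 1.55. MOL2a cells of control dOLCs were shallower, at 3862 UMIs against 6762 and 6050, and with cells thinned to 1000 UMIs the Klk6 log2 ratio was 1.42 for ectopic vOLCs and 1.501 for control vOLCs over control dOLCs. Which other members were past 1 changed with thinning, which left few UMIs. For ectopic vOLCs over control dOLCs, Hopx was then 0.63 (−1.20 to 2.18) from 5 and 14 UMIs, Anxa5 1.11 (0.24 to 1.94) from 19 and 38, and Mgst3 1.20 (0.26 to 2.09) from 17 and 32. Hopx for ectopic over control vOLCs turned from 0.32 to −0.62.

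In MOL2b the summed Klk6 level went the other way between libraries. The log2 ratio for ectopic vOLCs over control dOLCs was −0.65 (−0.93 to −0.39), from 154 and 468 UMIs. With cells thinned to 1000 UMIs it was −0.35 (−1.12 to 0.38), from 22 and 62 UMIs, an interval that includes 0. A Klk6 UMI was held by 55.7% of MOL2b cells of ectopic vOLCs and 40.4% of control dOLCs, with a median of 1 and 0 UMIs, and the ectopic cells were deeper (a median of 8292 against 7168 UMIs in all). In thinned cells the shares were 17.9% (11.2% to 26.6%) and 15.7% (11.3% to 21.0%), with intervals that overlap, and 2.83% and 6.81% of cells held at least 2 Klk6 UMIs. The 24 highest of 235 control dOLCs held 66.7% of the Klk6 UMIs there, and the 11 highest of 106 ectopic vOLCs held 50.6%. Hopx at −0.26 (−0.86 to 0.32), Anxa5 at 0.00095 (−0.39 to 0.39) and Mgst3 at 0.090 (−0.42 to 0.58) had intervals that include 0, and 0 of the 4 genes were past 1 or −1, beside 0.32% and 1.73% of all genes. The ratio over MOL2 as a whole depends on the mix of the clusters, and for Klk6 it was 0.77 (0.66 to 0.88) for ectopic vOLCs over control dOLCs and −0.94 (−1.05 to −0.83) for ectopic over control vOLCs. MOL2a made up 179 of 185 MOL2 cells in control vOLCs, 115 of 221 in ectopic vOLCs and 498 of 733 in control dOLCs.

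In MOL5/6, Klk6 had a log2 ratio of 1.42 (1.14 to 1.70) for control vOLCs over control dOLCs, −1.16 (−1.44 to −0.87) for ectopic over control vOLCs and 0.26 (0.022 to 0.50) for ectopic vOLCs over control dOLCs. Hopx did not pass the filter in MOL5/6. Of the other 3 members Klk6 was past 1 in the first, beside 1.12% of all genes, and past −1 in the second, beside 2.71%. Klk6 met the filter against control dOLCs through the library where it was higher, with a UMI in 25.3% of control vOLCs and 11.7% of the ectopic cells against 7.68% of control dOLCs, so nothing is read from the first of these counts. The same comparisons of Klk6 in OPCs gave 1.21 (0.48 to 1.90), −1.73 (−2.64 to −0.84) and −0.52 (−1.29 to 0.19). They rest on 24 UMIs in control vOLCs, 69 in control dOLCs and 22 in ectopic vOLCs. Klk6 did not pass the filter in either comparison with ectopic OPCs. MOL2a cells made up 19.4% of control vOLCs, 8.58% of control dOLCs and 4.49% of ectopic vOLCs. Anxa5 ranged from −0.23 to 0.27 and Mgst3 from −0.30 to 0.24 over the 3 pairs of libraries in MOL5/6, each with an interval that includes 0.

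**Figure D2:**
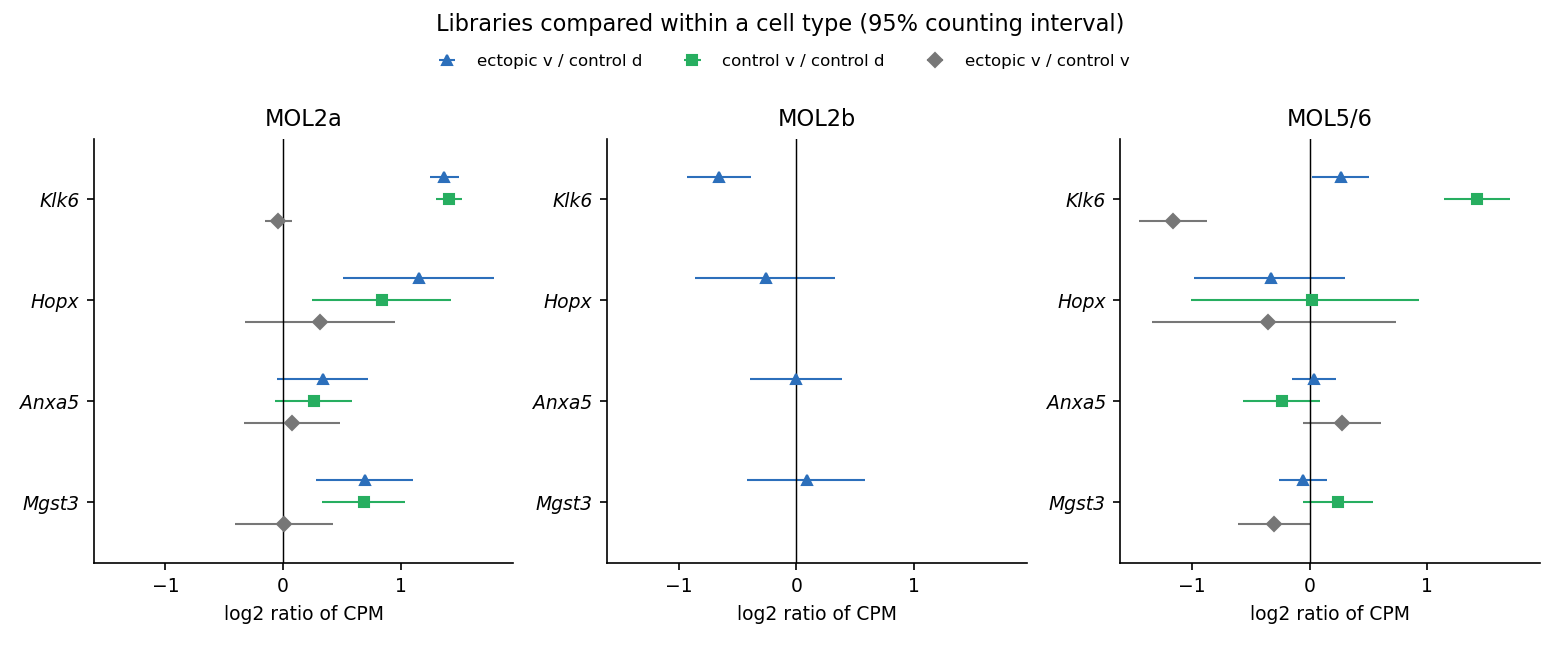
Log2 ratio of CPM (horizontal axis) of each gene between libraries within MOL2a, MOL2b and MOL5/6, with 95% conditional exact binomial intervals that cover counting error only. Ratios with control vOLCs are left out for MOL2b, which held 6 of their cells. Klk6 lies at 1.37 and 1.41 in MOL2a for the 2 ventral libraries over control dOLCs, and at −0.65 in MOL2b.

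The Klk6 difference in MOL2a was seen in how many cells held the gene and in how much they held. With cells thinned to 1000 UMIs, 23.7% of MOL2a cells of control dOLCs held a Klk6 UMI, against 43.6% of control vOLCs and 47.0% of ectopic vOLCs. Without thinning the shares were 45.0%, 72.1% and 83.5%. Thinned cells with a Klk6 UMI held a mean of 1.93 for control dOLCs, 2.97 for control vOLCs and 2.61 for ectopic vOLCs.

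Klk6 was unevenly shared among MOL2a cells. The 50 highest of 498 cells held 62.3% of its UMIs in control dOLCs, the 18 highest of 179 held 47.1% in control vOLCs and the 12 highest of 115 held 46.9% in ectopic vOLCs. The highest cells held 38, 65 and 66 UMIs, while the median cell held 0, 3 and 4. Hopx reached at most 3 UMIs in a MOL2a cell, and its thinned shares were 2.81%, 6.15% and 4.35% in MOL2a, beside 0.234% of control dOLC OPCs and 0 in the other two libraries.

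**Figure D3:**
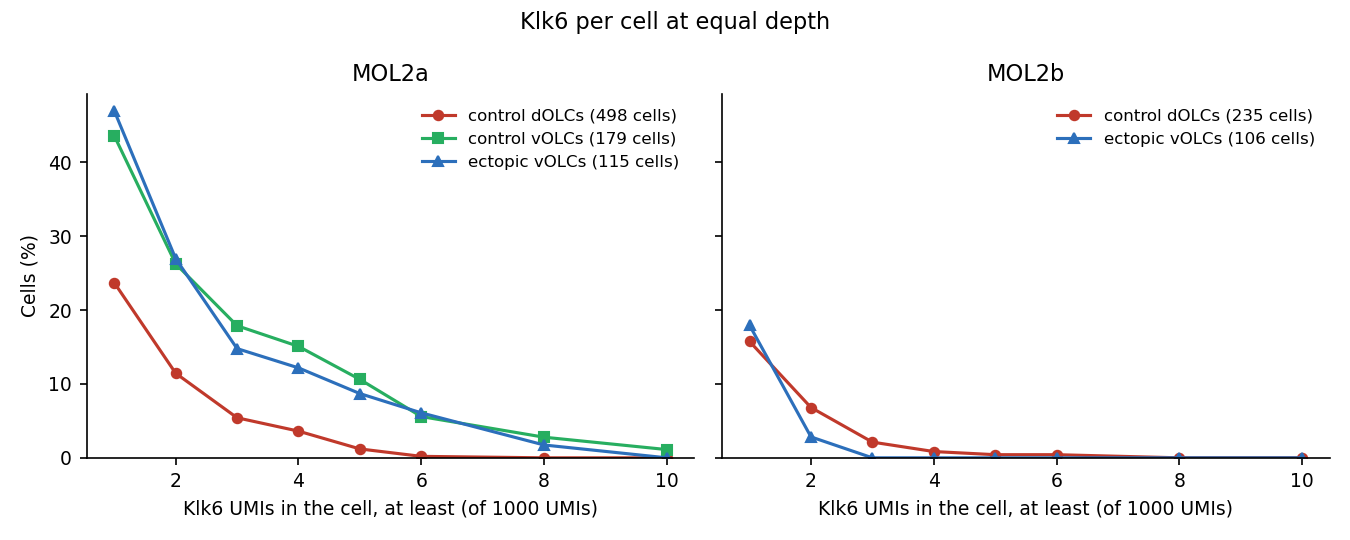
Share of cells in percent (vertical axis) with at least the given number of Klk6 UMIs (horizontal axis) after each cell was thinned to 1000 UMIs, in MOL2a and MOL2b; MOL2b of control vOLCs, with 6 cells, is left out. In MOL2a, 23.7% of control dOLCs and 43.6% and 47.0% of the ventral libraries hold at least 1 UMI, and the lines of the ventral libraries stay above that of control dOLCs up to 8 UMIs.

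Klk6 and Hopx were found in the same MOL2a cells more often than the product of their shares gives. Both genes had a UMI in 30 control dOLCs against 19.8 expected, in 33 control vOLCs against 25.9 and in 29 ectopic vOLCs against 25.9. Deeper cells hold more UMIs of every gene, so the count was repeated on thinned cells, where it was 6 against 3.32, 10 against 4.79 and 4 against 2.35. For Klk6 with Anxa5 the thinned counts were 12 against 8.53, 10 against 9.15 and 9 against 7.98, and for Klk6 with Mgst3 they were 12 against 7.11, 13 against 7.84 and 9 against 7.51. In MOL2b the thinned count for Klk6 with Hopx was 1 against 1.89 in control dOLCs and 1 against 0.54 in ectopic vOLCs, and for Klk6 with Mgst3 1 against 1.89 and 1 against 0.896. Klk6 with Anxa5 gave 6 against 3.46 and 2 against 1.79 there, and Hopx with Anxa5 4 against 1.12 and 1 against 0.28. Hopx and Anxa5 were found together in 0 thinned MOL2a cells of each library, against 1.01, 1.29 and 0.74 expected. With all UMIs the counts for this pair were 20 against 12.1, 27 against 17.7 and 17 against 14.0. These counts are small and are a description of each library.

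Genes with the pattern most like that of each member were ranked by Pearson r of log2(CPM + 10), averaged over libraries, across the 11 clusters, among 7252 genes with at least 500 UMIs. These clusters share libraries and were made from the same genes, and Hopx itself had fewer than 500 UMIs. Libraries were weighted equally with no minimum of cells. For control vOLCs this took in 3 cycling OPCs, 6 MOL2b cells, 8 MFOLb cells and 13 COP/NFOL/MFOLa cells. Klk6 in these 3 cycling OPCs stood at 126 CPM, from 1 UMI. Over the 11 clusters Klk6 and Hopx had an r of 0.78 with each other, Klk6 and Anxa5 0.72, and Klk6 and Mgst3 0.53. Anxa5 and Mgst3 had an r of −0.093 over all clusters but 0.89 over the 7 mature ones.

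The 10 genes most like Klk6 were Sccpdh (r of 0.90), Agmo (0.88), Tmem38b (0.85), Fntb (0.84), Slc25a27 (0.83), Gpd2 (0.82), Sys1 (0.81), Myo1e (0.80), Pmp22 (0.79) and St3gal4 (0.78). The list depends on the clusters used: with the 7 mature clusters alone, 1 of the 10 was still among the 10 most alike. Pmp22, a protein of peripheral myelin, stood at 1035 CPM in MOL2a, 712 CPM in MOL2b, 410 CPM in MOL5/6a and 342 CPM in MOL1, with a log2 ratio of 1.57 ± 0.20 (SD, n = 3) for MOL2 over other mature cells. Agmo, an enzyme that cleaves ether lipids, had a ratio of 1.94 ± 0.20 (SD, n = 3). Like Klk6 it was lower in MOL2b than in MOL2a, with a mean log2 ratio of −1.31.

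The 10 genes most like Hopx were Csdc2 (r of 0.95), Fntb (0.88), Itgb5 (0.85), Agmo (0.83), Gpd2 (0.83), Paqr7 (0.83), Efr3b (0.82), Slc25a27 (0.82), Golga2 (0.81) and St3gal4 (0.81). With the mature clusters alone, 0 of these 10 were among the 10 most alike. Csdc2, an RNA-binding protein, had a log2 ratio of 2.11 ± 0.68 (SD, n = 3) for MOL2 over other mature cells and stood at 41.5 CPM in MFOLb. Itgb5, an integrin subunit, had a ratio of 1.68 ± 0.33 (SD, n = 3). The 5 most like Anxa5 were Sepp1, a selenium carrier (r of 1.00), Inpp5f (0.98), Slco3a1 (0.98), Cyp2j12 (0.97) and Actr1a (0.97), and Sepp1 stood at 1756 CPM in MOL2a. The 5 most like Mgst3 were Pcmt1 (0.92), Dhx29 (0.90), Gpr137b (0.88), Exoc2 (0.87) and Ctnna2 (0.86).

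**Figure D4:**
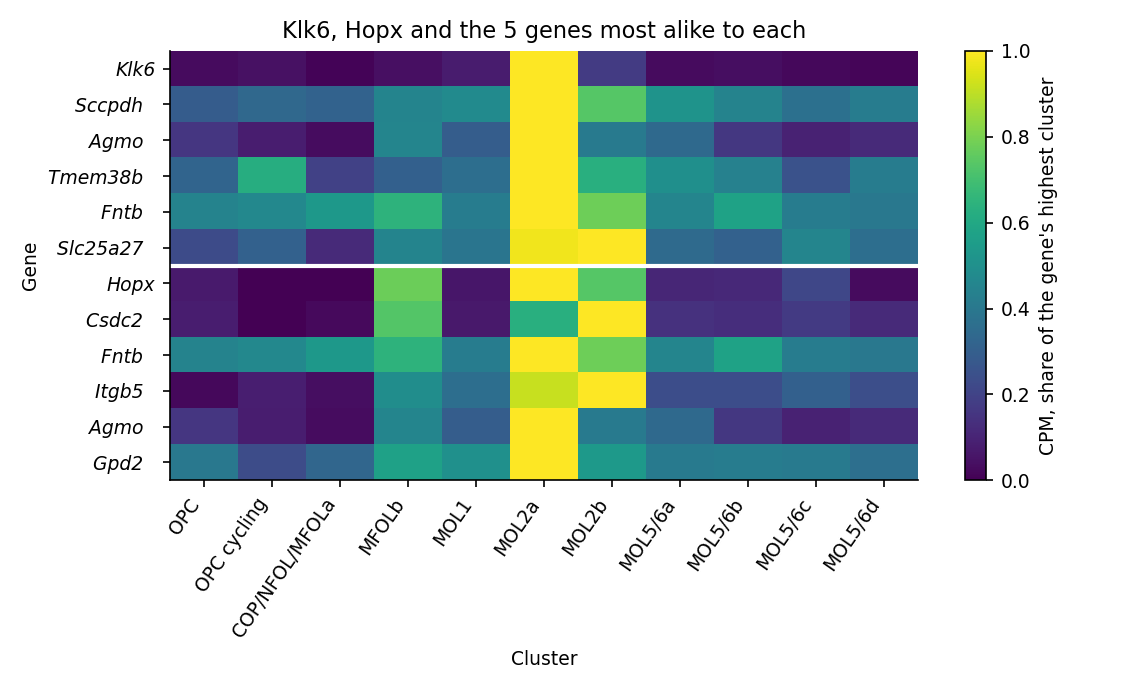
Mean CPM over libraries in each cluster (horizontal axis) as a share of the gene's highest cluster (colour), for Klk6 and Hopx and the 5 genes most like each (rows; Fntb and Agmo are in both sets). Libraries count equally, also where a cluster holds few of their cells. The rows of the Klk6 set peak in MOL2a, except Slc25a27, whose MOL2a and MOL2b levels are close. Hopx and Csdc2 are also high in MFOLb.

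Genes of related function were counted from lists, for MOL2 over other mature cells and past the same limits of log2 1 and −1, which 1.29% and 0.629% of all genes passed. Among kallikreins no gene but Klk6 passed the filter: Klk8 had 69 UMIs in all cells, 51 of them in OPCs. Of the receptors and substrates of Klk6, 0 of 2 past the filter were past the limits, with the myelin protein gene Mbp at 0.14 ± 0.045 and App at 0.0057 ± 0.093 (SD, n = 3). Of the serine protease inhibitors, 1 of 3 was higher, Serpinb1a at 1.28 ± 0.11 (SD, n = 3). Serpine2, which encodes an inhibitor secreted by glia, was at −0.49 ± 0.20 and Serpinb6a at 0.49 ± 0.12 (SD, n = 3).

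Among partners of Hopx 0 of 3 were past the limits, with the histone deacetylase genes Hdac1 at −0.012 ± 0.38, Hdac2 at −0.018 ± 0.094 and Hdac3 at 0.39 ± 0.095 (SD, n = 3). Among targets of serum response factor 1 of 4 was lower, the immediate early gene Fos at −1.62 ± 0.52 (SD, n = 3). Fos is itself a listed marker of MOL1, where it stood at 917 to 1777 CPM, and against MOL5/6 alone the ratio was 0.35 ± 0.24 (SD, n = 3). Of the others, the actin genes Actb and Actg1 were at 0.30 ± 0.078 and 0.26 ± 0.073 and Tpm1 was at 0.056 ± 0.11 (SD, n = 3). No annexin but Anxa5 passed the filter. Of 5 S100 genes, which encode calcium-binding proteins, 1 was higher, S100b at 2.43 ± 0.45, with S100a16 at 0.41 ± 0.042, S100a1 at 0.032 ± 0.11 and S100a13 at 0.095 ± 0.18 (SD, n = 3).

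Around Mgst3, no other gene of its membrane-bound family passed the filter. Of 7 cytosolic glutathione transferases 0 were past the limits, and their median log2 ratio was 0.52, beside 0.048 over all genes. Gstm1 was at 0.81 ± 0.12, Gstm7 at 0.67 ± 0.069 and Gstm5 at 0.41 ± 0.077, whereas Gstp1 was at −0.91 ± 0.22 (SD, n = 3). Of 5 genes of glutathione synthesis and use 0 were past the limits, with Gss at 0.70 ± 0.29, Gsr at 0.44 ± 0.15, Gclm at 0.27 ± 0.11 and Gpx4 at −0.039 ± 0.029 (SD, n = 3).

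Markers of other cell types and lineage stages were summed over each list. In MOL2a, the 4 mural markers were at 0 in every library, the 3 endothelial markers at 2.91 to 5.11 CPM, the 4 neuronal markers at 8.52 to 17.8 CPM, the 5 microglial markers at 34.9 to 49.1 CPM and the 6 astrocyte markers at 260 to 283 CPM. The 6 OPC markers summed to 43.6 to 89.7 CPM in MOL2a, close to 40.3 to 91.7 CPM in MOL5/6 and against 7221 to 8981 CPM in OPCs. The 6 MOL5/6 markers summed to 27183 to 27914 CPM in MOL2a and 41425 to 53777 CPM in MOL5/6. The lower sum was carried by Ptgds, at 5538 to 11641 CPM in MOL2a and 30987 to 40972 CPM in MOL5/6. Il33 and Jph4 were also lower in MOL2a, whereas the ranges of Car2 and Grm3 overlapped. Another of these markers, Apod, was higher in MOL2a, at 9289 to 15419 CPM against 3676 to 5114 CPM in MOL5/6. The 5 markers of newly formed cells summed to 363 to 397 CPM in MOL2a and 46.9 to 102 CPM in MOL5/6. This sum was mostly Enpp6, at 328 to 364 CPM in MOL2a and 20.7 to 45.4 CPM in MOL5/6, while Tcf7l2 stood at 8.72 to 25.8 and 16.2 to 30.6 CPM, and Neu4 at 2.91 to 11.4 and 4.92 to 14.0 CPM.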

How the data were processed

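The 3 libraries of sorted OLCs at P90 were analysed, and 4 P0 samples were not analysed here. The authors deposited raw UMI counts, which the labels place on mm10 with Cell Ranger 2.1.1 (the methods of the paper name another version) and Seurat 3 and 4.0, and an annotation of cells with cluster names and a mitochondrial percent that the authors computed per cell. Their filter kept cells with over 200 and under 3000 genes and at most 15% mitochondrial counts. Of 10081 barcodes 9291 were kept. UMIs per cell equalled those of the annotation in 7651 cells, and the largest difference was 53.

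UMIs were summed per cluster and library. Ratios of CPM carry conditional exact binomial intervals, levels exact Poisson intervals and shares Clopper-Pearson intervals, all at 95%. PCR duplicates are collapsed by UMI, and the intervals cover counting error only. A count of 0 was taken to allow 3 counts. No doublets were removed; the alternative without the highest 6% of Scrublet scores in each library left out 519 cells, 43 of MOL2a and 9 of MOL2b. Thinning to 1000 UMIs left out 0 cells. The minimum of 20 cells for the order of clusters was chosen after the data were seen.

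Named genes were the members, the 10 genes most like Klk6 and Hopx, the 5 most like Anxa5 and Mgst3, and, from each list, up to 4 genes with the most UMIs among those with at least 50. Members and lists were chosen with earlier results of these data known. Alternatives used TMM factors (edgeR), size factors by the median of ratios (DESeq2), the mean of CPM over cells, and other filters. The ratio and thinning steps were tested on simulated data. Tools were edgeR 4.0.16 and DESeq2 1.42.0 in R 4.3.3, and scanpy 1.11.5, scipy 1.17.1, numpy 2.4.6, matplotlib 3.10.9 and pandas 2.3.3 in Python 3.11.15.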

Additional observations from a re-analysis of the deposited data

Results flagged for a closer look

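Klk6 differed in direction between the 2 MOL2 clusters. For ectopic vOLCs over control dOLCs its log2 ratio of CPM was 1.37 in MOL2a and −0.65 in MOL2b. With cells thinned to 1000 UMIs the MOL2b value was −0.35 (95% interval −1.12 to 0.38), and 17.9% of ectopic vOLCs (11.2% to 26.6%) and 15.7% of control dOLCs (11.3% to 21.0%) in MOL2b held a Klk6 UMI, with intervals that overlap. Without thinning these shares were 55.7% and 40.4%. For control vOLCs over control dOLCs the log2 ratio of Klk6 was 1.41 in MOL2a and −1.07 in MOL2b, the last from 7 UMIs in 6 cells with a 95% interval of −2.39 to −0.011. The difference between the clusters was not tested, since each condition is 1 library, and both comparisons share the control dOLC library.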

How the results depend on the processing

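Of 365 values recomputed under an alternative, 310 stayed within the spread or interval of the value reported and 55 moved beyond it. The sign changed in 26: in 6 the value reported was off 0 by its interval or spread, and in 20 it was not. The cause was not tested in any of them. No paired analysis was possible because there is 1 library per condition and no number links libraries. Leaving out 1 library at a time gave, for MOL2 over other mature cells, mean log2 ratios of 4.37 to 4.65 for Klk6, 3.28 to 3.68 for Hopx, 1.40 to 1.63 for Anxa5 and 1.15 to 1.42 for Mgst3. For MOL2b over MOL2a it gave −3.21 to −1.97 for Klk6, −0.63 to −0.11 for Anxa5, −1.21 to −0.56 for Mgst3 and −0.41 to 1.00 for Hopx, where without control dOLCs the value is that of ectopic vOLCs and without ectopic vOLCs that of control dOLCs.

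Against MOL1 alone Klk6 had a log2 ratio of 3.48 and Anxa5 1.26, and thinned cells gave 4.05 for Hopx in MOL2 over other mature cells. Within MOL2, thinned cells gave 0.90 for Klk6, 0.71 for Anxa5 and 0.73 for Mgst3 (ectopic vOLCs over control dOLCs), −0.77 for Klk6 and −0.67 for Hopx (ectopic over control vOLCs) and 0.87 for Hopx (control vOLCs over control dOLCs). In MOL5/6 they gave −1.66 for Hopx over control dOLCs (2 ectopic cells with a UMI against 13). Over control vOLCs they gave −2.30 for Hopx (2 against 3) and −1.61 for Klk6. The mean of CPM over cells gave −0.78 for Klk6 in ectopic over control vOLCs, and TMM and size factors gave 0.88 and 0.89 for Klk6 in ectopic vOLCs over control dOLCs. Within MOL2a alone, Klk6 was 1.37 and Hopx 1.16 for ectopic vOLCs over control dOLCs, Klk6 −0.039 and Mgst3 0.012 (a change of sign) for ectopic over control vOLCs, and Klk6 1.41 and Hopx 0.84 for control vOLCs over control dOLCs. Within MOL2b alone, Klk6 was −0.65 and Hopx −0.26 for ectopic vOLCs over control dOLCs, both a change of sign. The ratios to or from the 6 MOL2b cells of control vOLCs were 0.41 for Klk6, 0.79 for Anxa5 and 0.71 for Mgst3 (ectopic over control vOLCs), and −1.07 for Klk6, −0.79 for Anxa5 and −0.62 for Mgst3 (control vOLCs over control dOLCs), with a change of sign for all 3 genes in both.

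Alternatives within MOL2a were chosen after the data were seen. Klk6 was 1.55 with TMM and 1.56 with size factors for ectopic vOLCs over control dOLCs, and 0.14 and 0.15 for ectopic over control vOLCs. Thinned cells gave 1.11 for Anxa5 and 1.20 for Mgst3 (ectopic vOLCs over control dOLCs), −0.62 for Hopx, 0.49 for Anxa5 and 0.48 for Mgst3 (ectopic over control vOLCs) and 0.62 for Anxa5 (control vOLCs over control dOLCs). Thinned cells gave −0.35 for Klk6 in MOL2b (ectopic vOLCs over control dOLCs), also chosen after the data were seen. With the level of OPCs taken off, chosen likewise, the 18 values of Klk6, Hopx and Anxa5 stayed within their intervals. Mgst3, nearly as high in OPCs, was left out: taking off that level would leave 12.4, 8.56 and 31.8 CPM in MOL2a of control dOLCs, control vOLCs and ectopic vOLCs.

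Thinned cells gave shares with a UMI in MOL2, as means of libraries, of 32.3% for Klk6, 4.37% for Hopx, 10.49% for Anxa5 and 8.32% for Mgst3, and asking for at least 2 UMIs gave 4.99% for Hopx, 14.9% for Anxa5 and 10.8% for Mgst3. Of the 10 genes most like Klk6, 1 was shared when mature clusters alone were used and 3 with a minimum of 100 UMIs. For Hopx 0 and 6 were shared, and 6 with log2(CPM + 1). Observed over expected MOL2 cells with Klk6 and another gene, in thinned cells, were 1.76 for Hopx, 1.27 for Anxa5 and 1.53 for Mgst3. Without the filter on low counts, genes past 1 and −1 numbered 1401 and 413 for MOL2 over other mature cells (72 and 35 with it) and 1125 and 615 for MOL2b over MOL2a (394 and 65). They numbered 604 and 1547 for ectopic vOLCs over control dOLCs in MOL2a (36 and 368), 452 and 1420 for ectopic over control vOLCs (10 and 224, and 32 and 128 with TMM) and 755 and 702 between the controls (83 and 36). Size factors gave 255 and 139 for MOL2b over MOL2a and 86 and 199 for ectopic vOLCs over control dOLCs in MOL2a. Over MOL2, ectopic vOLCs over control dOLCs had 21 and 128, and 33 and 79 with TMM; in MOL5/6 they had 10 and 102, and 21 and 54.

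The main limits are 1 library per condition, 6 MOL2b cells in control vOLCs, and few Hopx UMIs.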
